A study of Mus musculus with 24 samples.

Results

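The mRNA of 10 genes that mark the principal neurons of the hippocampus was measured in neonatal mice given morphine during daily stress. The genes were Prox1, Calb1, Wfs1, Spink8, Dkk3, Neurod1, Neurod2, Neurod6, Zbtb20 and Slc17a7. Every non-control probe that carries one of these gene names was taken, which gave 12 of the 55681 probes on the array and 10 of its 36163 gene names. The animals were male C57BL/6 pups killed on postnatal day (P) 9, and both hippocampi of a pup were pooled into a single RNA sample. The 3 groups held 5 pups each, and each pup had its own Agilent array. Untreated controls (Con) stayed with the dam. Pups of the MS2 and MS5 groups were treated from P5: they were isolated from the dam in a warmer by day, had brief nitrogen apnea, and were injected under the skin with 2 or 5 mg/kg morphine before each apnea. Controls were littermates housed in the same cages overnight. No group had stress without morphine, so in MS2 and MS5 against Con the dose and the stress procedure cannot be told apart, whereas MS5 and MS2 differ by dose.

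Principal neurons are the excitatory projection cells of the hippocampus, namely the granule cells of the dentate gyrus and the pyramidal neurons of fields CA1 to CA3. They release glutamate and are specified by homeobox, zinc finger and basic helix-loop-helix (bHLH) transcription factors, among them the NeuroD family, which drives young neurons of the forebrain to mature and stays on in adult excitatory cells. Dentate granule cells are still being added in the first postnatal weeks. In a whole-tissue sample fewer cells of a type and less RNA per cell cannot be told apart.

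Levels are given on the log2 scale of the authors' normalized values, on which a difference of 1 is a 2-fold change. Replicate numbers are the numbers in the labels, and values are listed in their order: 15 to 19 for Con, 1, 3, 4, 5 and 7 for MS2, and 8, 9, 12, 13 and 14 for MS5. All 12 probes were well above background on all 15 arrays, and none was saturated. The arrays had a median spot signal of 121 to 154, other than MS2 replicate 5 at 58.2. The array of MS5 replicate 9 carried Xist, the transcript that coats the inactive X chromosome, at 11.34 against 5.89 to 6.08 on the others, although its label says male. The array labelled MS2 replicate 4 stood apart from all others, with a mean correlation of 0.9901 with them against at least 0.9953 for each of the others.

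The library labelled MS2 replicate 4 had the lowest level of all 15 arrays at every one of the 12 probes. Of all probes well above background on every array, 20.1% were also lowest there. Neurod6 lay at 10.02 there, a difference of -3.62 from the median of the other 14 arrays, which is 12.3-fold lower. Spink8 was 12.1-fold lower, Neurod2 11.8-fold, Slc17a7 7.89-fold, and the brighter Neurod1 probe 7.31-fold. Zbtb20 was 4.42-fold lower, Dkk3 3.37-fold, the brighter Calb1 probe 3.07-fold and Wfs1 1.81-fold. Prox1 was least apart, at 9.43 against a next lowest array of 9.47. In all, 8 of the 10 genes were more than 1 below the median of the other arrays, against 1.79% of the 36270 probes that were well above background on every array.

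Other marker genes also differed in that library. All 8 further CA1 markers lay below the other 14 arrays, with a median of -1.82. The other pyramidal fields were less apart by their medians, 0.17 for CA2 and -0.33 for CA3. Below all other arrays lay 1 of 7 CA2 markers, Rgs14 at -2.83, and 5 of 7 CA3 markers, against 20.1% of well-measured probes. Of 9 genes of hypothalamus and thalamus, 8 were more than 1 above the median of the other arrays. Pmch, the precursor of melanin-concentrating hormone, was at 13.33 against 5.99 to 7.55, and Hcrt, the hypocretin precursor, at 12.31 against 7.92 to 8.45. The summed level of this list was 15.17 there and between 12.43 and 14.06 on the others. Emx1, a factor of the dorsal forebrain, was at 7.13 against 9.32 to 10.35, and Slc17a6, the vesicular glutamate transporter of thalamus and hypothalamus, at 14.87 against 11.61 to 12.75. Dentate granule markers other than Prox1 were split, with 4 of 10 below and 4 above all other arrays. Of all 36270 well-measured probes, 7302 lay below and 6491 above all other arrays. These levels go against the tissue given in its label, and whether the sample was hippocampus alone was not tested, so every MS2 value over 5 arrays rests on a library in doubt. Comparisons of the 10 genes are therefore given with and without it, a choice made after its values were seen.

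**Figure D1:**
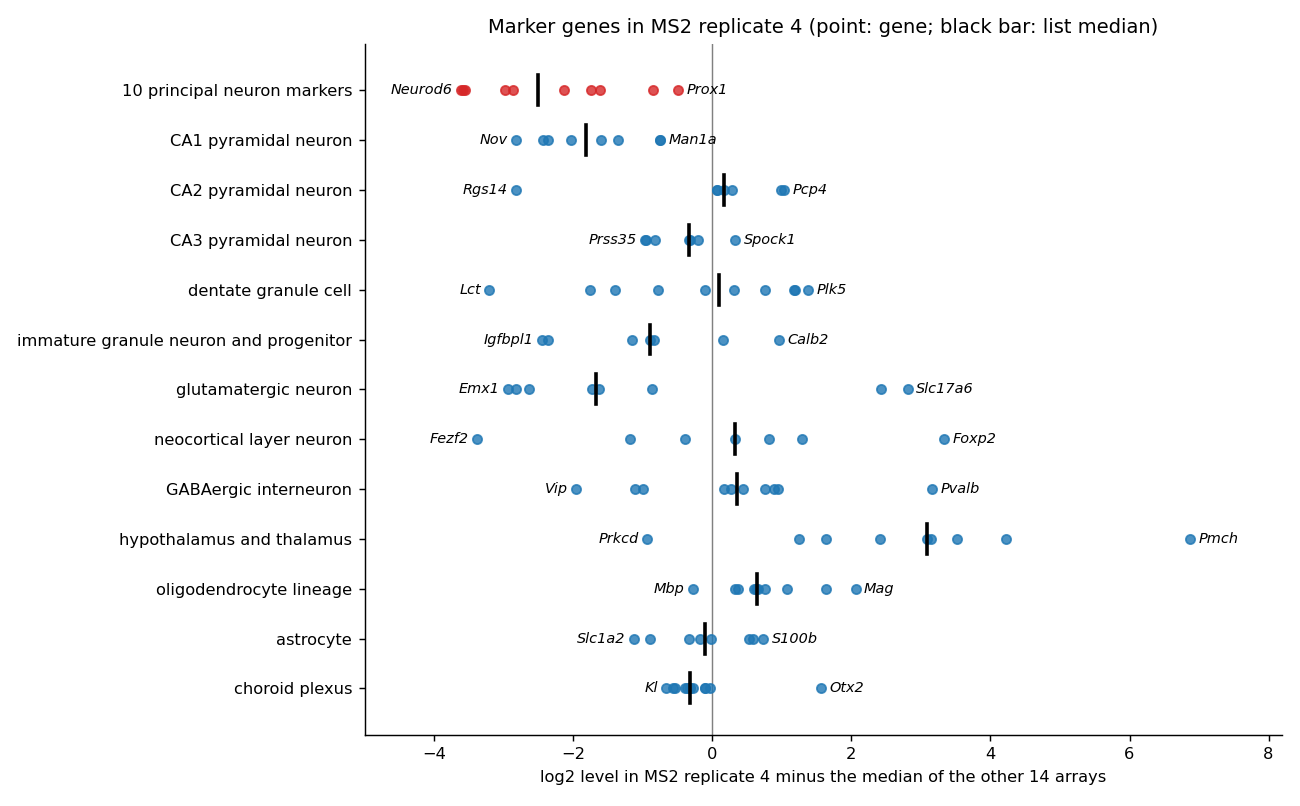
Log2 level in MS2 replicate 4 minus the median of the other 14 arrays (x axis), for the genes of 13 lists (rows). Each point is a gene, the black bar is the median of its list, and the lowest and highest gene are named. The 10 principal neuron markers lie between -3.62 and -0.49, whereas 8 of 9 genes of hypothalamus and thalamus lie above 1, up to 6.87 for Pmch.

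Prox1 and Calb1 mark granule cells. Prox1 is the homeobox factor that fixes granule cell identity (probe at mm9 chr1:191945785-191945844, minus strand). Its levels were 10.25, 10.07, 9.92, 10.05 and 9.47 on the Con arrays, 10.32, 10.60, 9.43, 9.84 and 9.93 on the MS2 arrays, and 9.62, 9.65, 9.79, 9.77 and 9.98 on the MS5 arrays. The groups overlapped, and MS5 had both the lowest mean, 9.76 ± 0.14 (SD, n = 5), and the least spread. Without MS2 replicate 4, MS5 differed from MS2 by -0.41 (standard error (SE) 0.16, limma p = 0.0254, adjusted p = 0.722, exact permutation p = 0.0397). MS5 differed from Con by -0.19 (exact permutation p = 0.238).

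Calb1, the calcium-binding protein calbindin of mature granule cells and of some CA1 cells, had 2 probes (chr4:15835078-15835137 and chr4:15833582-15833641, plus strand). The brighter probe lay at 10.68 ± 0.21 in Con, 10.46 ± 0.81 in MS2 and 10.67 ± 0.35 in MS5 (SD, n = 5). Without MS2 replicate 4 the MS2 mean was 10.79 ± 0.37 (n = 4). The 95% confidence interval of MS5 minus Con was then -0.40 to 0.37 for the brighter and -0.26 to 0.31 for the dimmer probe. The brighter probe had its highest level, 11.33, on the dim array of MS2 replicate 5. In MS5 that probe was lowest in replicate 12, at 10.07.

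Wfs1, Spink8 and Dkk3 mark pyramidal neurons. Wfs1 encodes wolframin, a membrane protein of the endoplasmic reticulum that is dense in CA1 (chr5:37357424-37357483, minus strand). It lay at 13.33, 13.15, 13.34, 13.07 and 13.34 in Con, at 13.39, 13.16, 12.51, 13.42 and 13.47 in MS2, and at 13.54, 13.55, 13.59, 13.13 and 13.53 in MS5. In MS5, 4 of the 5 arrays were above every Con array, and replicate 13 was low. Wfs1 was the 1 gene of the 10 with a higher mean in MS5 than in Con, by 0.22 (SE 0.15, limma p = 0.172, adjusted p = 1, exact permutation p = 0.0794). Without MS2 replicate 4, which changes only the shared estimate of spread in this contrast, the SE was 0.09 and the unadjusted limma p fell to 0.029 (adjusted p = 0.764), with the exact permutation p as before.

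Spink8, a Kazal-type protease inhibitor used as a CA1 marker (chr9:109729037-109729096, plus strand), lay at 11.13, 11.04, 11.34, 10.95 and 10.92 in Con. It lay at 11.19, 11.20, 7.49, 11.28 and 11.45 in MS2, and at 10.91, 10.79, 11.48, 10.88 and 10.73 in MS5. The 4 other MS2 arrays lay close together, and in MS5 replicate 12 was high and the rest were below all 4 of them. Without MS2 replicate 4, MS5 differed from MS2 by -0.32 (SE 0.13, limma p = 0.0299, adjusted p = 0.731, exact permutation p = 0.0952). Dkk3, a secreted protein of the Dickkopf family (chr7:119259556-119259615, minus strand), lay at 14.24 ± 0.10 in Con, 13.90 ± 0.81 in MS2 and 14.08 ± 0.21 in MS5 (SD, n = 5). The SD of the 4 other MS2 arrays was 0.10.

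Neurod1, Neurod2 and Neurod6 are the NeuroD factors of the hippocampus: Neurod1 is needed for granule cells to mature, and the other two are kept in postmitotic excitatory neurons. Neurod2 (chr11:98187943-98188002, minus strand) lay at 14.36, 14.29, 14.16, 14.46 and 13.89 in Con, at 14.22, 14.36, 10.59, 14.06 and 14.15 in MS2, and at 13.49, 14.00, 14.15, 13.95 and 13.95 in MS5. Every MS5 array lay below 4 of the 5 Con arrays, and Con replicate 19 and MS5 replicate 8 were the lowest of their groups. The groups still overlapped. MS5 differed from Con by -0.33, with an SE of 0.55 over all 15 arrays (limma p = 0.56, adjusted p = 1) and of 0.12 without MS2 replicate 4 (limma p = 0.017, adjusted p = 0.689), and an exact permutation p of 0.0635.

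Neurod6 (chr6:55628006-55628065, minus strand) lay at 13.75, 13.78, 13.73, 13.79 and 13.32 in Con. It lay at 13.68, 13.89, 10.02, 13.41 and 13.65 in MS2, and at 13.03, 13.48, 13.62, 13.46 and 13.39 in MS5. As with Neurod2, every MS5 array was below 4 of the 5 Con arrays, and Con replicate 19 and MS5 replicate 8 were lowest. MS5 differed from Con by -0.28, with limma p = 0.0347 and adjusted p = 0.8 without MS2 replicate 4, and an exact permutation p of 0.0714. Neurod1 had 2 probes (chr2:79294309-79294368 and chr2:79293621-79293680, minus strand), which differed between MS5 and Con by -0.37 and -0.34. Neither passed p under 0.05 with or without that library. MS5 replicate 8 was the lowest MS5 array at both, at 9.89 and 9.23.

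The lower NeuroD values of MS5 were seen on 1 slide of 2, as were those of some other members. Slides held 8 and 7 arrays, and each held all 3 groups. Within slide 1, Neurod2 differed between MS5 and Con by -0.61, past the threshold of 1.5-fold with p under 0.05, and within slide 2 by -0.06, not past it, both without MS2 replicate 4. Neurod6 gave -0.51 and -0.06, and the brighter Neurod1 probe -0.68 and -0.04. Other members were also lower on slide 1 alone. Slc17a7 gave -0.39 and 0.13, Prox1 -0.38 and 0.04, Zbtb20 -0.26 and 0.12, and Spink8 -0.25 and 0.02. Dkk3 was lower on both slides, at -0.19 and -0.11. Wfs1, at 0.09 and 0.31, and the brighter Calb1 probe, at 0.03 and 0, were lower on neither. In a fit with group-by-slide terms, chosen after these values were seen, the slide 1 difference minus that of slide 2 was -0.56 for Neurod2 (SE 0.21, limma adjusted p = 0.719) and -0.45 for Neurod6 (SE 0.21, limma adjusted p = 0.742), and neither passed after adjustment. With the slide as a block, Neurod2 gave -0.32 and kept an unadjusted p under 0.05. Slide 1 held Con replicates 15, 17 and 18 and MS5 replicates 8 and 13. Slide 2 held Con replicates 16 and 19 and MS5 replicates 9, 12 and 14. MS5 replicate 8 and Con replicate 19, the lowest of their groups, thus each weighed heavily in 1 of these differences. Whether the slide or these single arrays set them was not tested. On MS5 replicate 8 and Con replicate 19 the summed level of oligodendrocyte genes was also among the highest, at 17.04 and 16.77. It was 15.41 to 16.41 on the other arrays but MS2 replicate 4 at 16.93. The list of hypothalamus and thalamus was at 14.06 on MS5 replicate 8 and 12.85 on Con replicate 19. It was also at 13.73 on MS5 replicate 12, which had the highest Neurod2 and Neurod6 of MS5, and at 13.54 on MS5 replicate 14. The remaining arrays but MS2 replicate 4 lay at 12.43 to 12.96. The part of that list in the NeuroD levels was not tested. Without MS5 replicate 8 as well, Neurod2 was the 1 probe of the 12 with limma p under 0.05 in MS5 against Con.

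**Figure D2:**
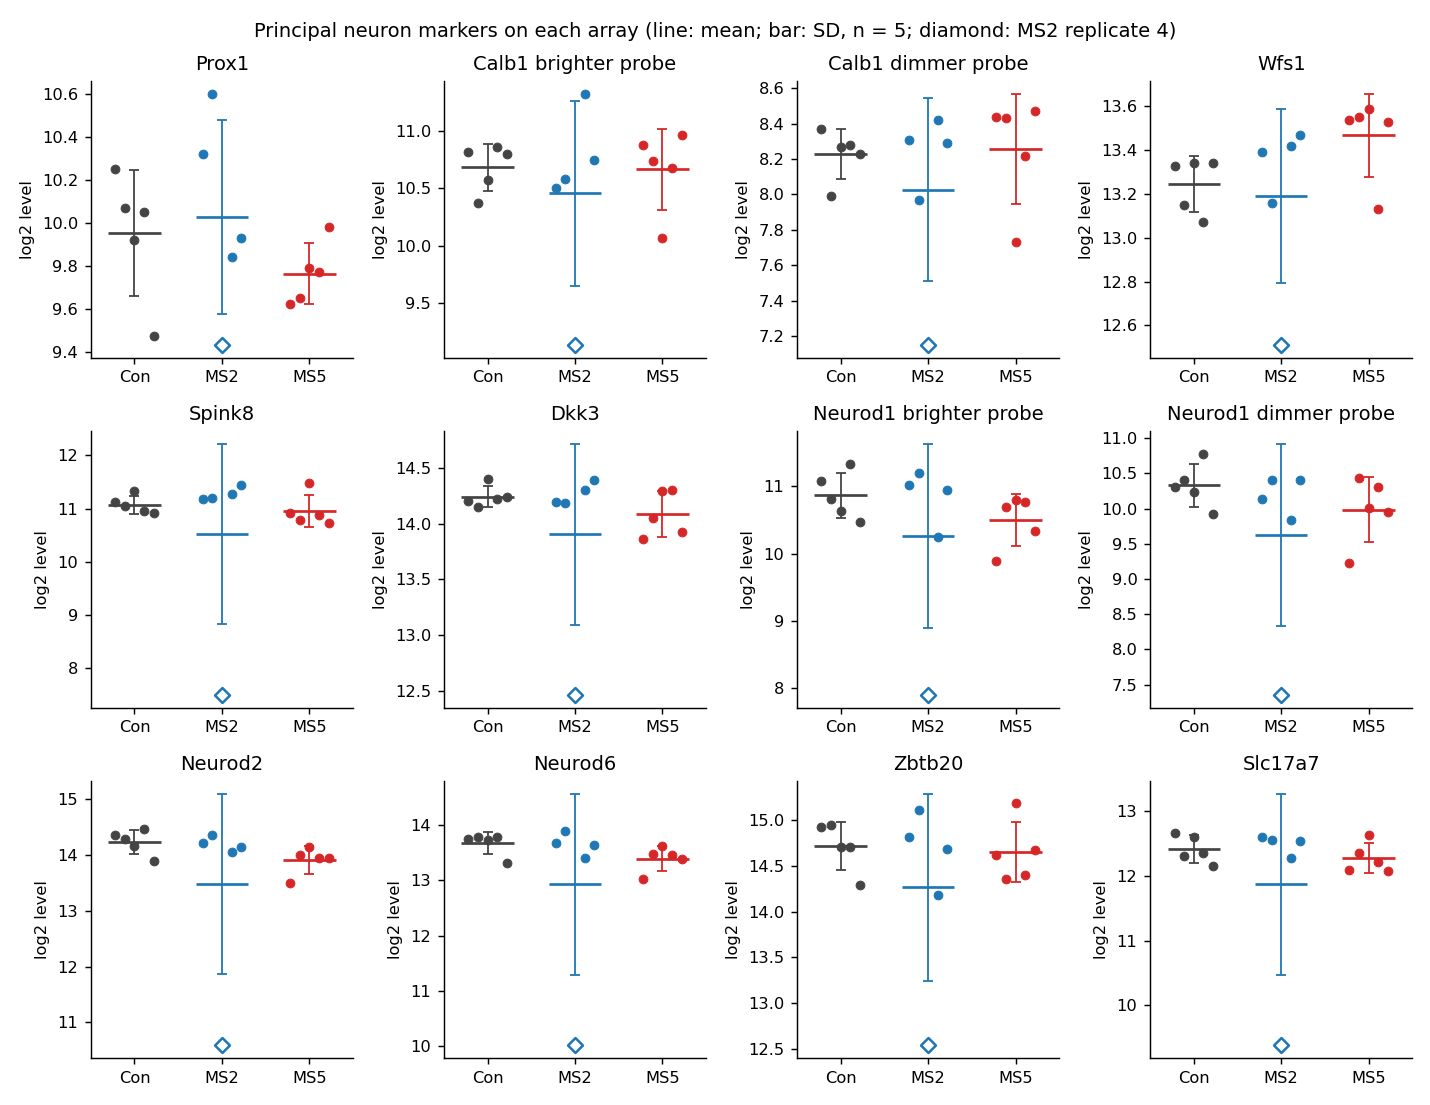
Log2 level (y axis) of each of the 12 probes on the 5 arrays of Con, MS2 and MS5 (x axis). Lines are means, bars are SD (n = 5), and the open diamond is MS2 replicate 4, which is the lowest point in every panel; the y axes differ between panels and do not start at 0.

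Neurod2 and Neurod6 moved together from array to array, so the 250 bases upstream of their start sites are shown, from RefSeq on GRCm38.p6 and read 5′ to 3′ on the minus strand. Capitals mark every CANNTG, the E-box letters that bHLH factors bind. The motif reads the same on both strands, and one of its forms, which NeuroD proteins bind, is spelled CAGATG.
Neurod2, chr11:98329646-98329895: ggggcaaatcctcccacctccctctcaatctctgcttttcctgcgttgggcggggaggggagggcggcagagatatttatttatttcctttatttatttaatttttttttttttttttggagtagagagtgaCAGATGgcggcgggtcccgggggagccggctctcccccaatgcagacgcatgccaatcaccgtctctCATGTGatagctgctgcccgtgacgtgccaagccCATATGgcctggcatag
Neurod6, chr6:55681264-55681513: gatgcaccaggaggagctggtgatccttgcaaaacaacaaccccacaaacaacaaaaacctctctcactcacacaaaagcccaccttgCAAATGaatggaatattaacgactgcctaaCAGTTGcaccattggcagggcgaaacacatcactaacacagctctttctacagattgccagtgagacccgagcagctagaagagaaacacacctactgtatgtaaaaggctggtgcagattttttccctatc
Neurod2 held 3 E-boxes, of which the CAGATG began 118 bases before the start, and Neurod6 held 2 at 162 and 132 bases, neither of them CAGATG. Promoters of 7 of the 10 genes were in the RefSeq table, in 8 windows since Prox1 has 2 starts. Of these windows 7 held CANNTG and 3 held CAGATG on either strand (Prox1, Wfs1 and Neurod2). Over all 32851 windows of this length, 66.2% held CANNTG and 14.4% held CAGATG. A match is only a run of letters, and binding was not measured.

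Zbtb20 and Slc17a7 are shared by the fields. Zbtb20 is a zinc finger repressor that specifies hippocampal neurons (chr16:43619030-43619089, plus strand). It lay between 14.29 and 14.94 in Con and between 14.36 and 15.18 in MS5. In MS2 it lay between 14.18 and 15.11, other than replicate 4 at 12.54. Slc17a7, the vesicular glutamate transporter VGLUT1 that loads glutamate into synaptic vesicles (chr7:52430841-52430900, plus strand), lay between 12.15 and 12.66 in Con and between 12.08 and 12.63 in MS5. In MS2 it lay between 12.28 and 12.60, other than replicate 4 at 9.38. MS5 minus Con was -0.06 (95% confidence interval -0.46 to 0.33) for Zbtb20 and -0.14 (-0.39 to 0.11) for Slc17a7 without that library.

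Over all 15 arrays none of the 12 probes was differentially expressed in any comparison by the threshold of the methods, a change over 1.5-fold with unadjusted limma p under 0.05. None had unadjusted p under 0.05 either, and no adjusted p was under 0.97. After adjustment 0% of all probes passed in each comparison. Over all 55681 probes, 0.0233% passed the threshold in MS2 against Con, 0.228% in MS5 against Con and 0.129% in MS5 against MS2. Unadjusted p was under 0.05 for 4.17%, 3.9% and 3.97% of all probes. The groups overlapped at all 12 probes in each comparison, against 0.702%, 0.828% and 0.621% of all probes whose groups did not overlap. Every 95% confidence interval included 0. The median difference of the 10 genes was -0.50 in MS2 against Con, -0.15 in MS5 against Con and 0.33 in MS5 against MS2, against 0 over all probes.

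These intervals were wider with MS2 replicate 4 than without it. The within-group SD of the 12 probes was 0.266 to 0.999, against a median of 0.135 over well-measured probes. Without MS2 replicate 4 it was 0.143 to 0.380, against a median of 0.122. The 12 SDs then still exceeded those of 63.9% to 97.8% of well-measured probes, and that of Prox1 changed little, from 0.322 to 0.279. The median difference of the 10 genes became 0.05 in MS2 against Con and -0.24 in MS5 against MS2, a turn of sign in both, and stayed at -0.15 in MS5 against Con. In MS2 against Con none of the 12 probes then had p under 0.05, against 4% of all probes, with 0.0162% of all probes past the fold threshold and 1.44% not overlapping, and the intervals of the 12 differences lay within -0.60 to 0.57.

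In MS5 against Con, 3 of the 12 probes then had unadjusted p under 0.05 (25%, against 5.92% of all probes): Neurod2 and Neurod6 lower, against 3.45% of all probes, and Wfs1 higher, against 2.47%. In MS5 against MS2 there were also 3 (against 6.78%): Prox1, Neurod2 and Spink8, all lower, against 3.8% of all probes. None exceeded 1.5-fold, against 0.28% and 0.187% of all probes, none passed after adjustment, and all groups overlapped, against 0.828% and 2.14% that did not. Of the 10 genes, 9 had a lower mean in MS5 than in Con, against 49.8% of all probes, and 9 a lower mean in MS5 than in MS2, against 49.3%. These comparisons share the MS5 arrays, and the genes vary together, so the counts are not independent.

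**Figure D3:**
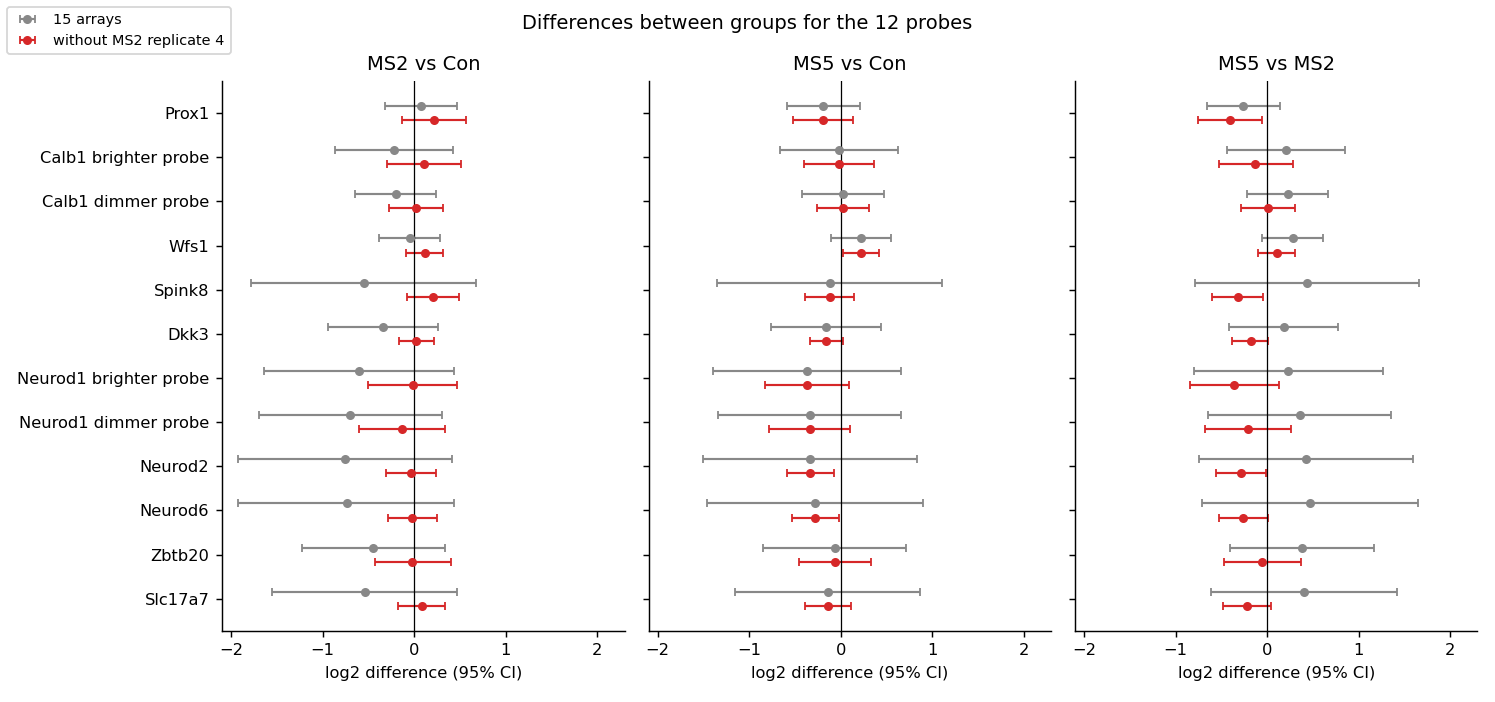
Log2 difference (x axis) with its 95% confidence interval for the 12 probes (rows) in the 3 comparisons (panels), over all 15 arrays (grey) and without MS2 replicate 4 (red). The grey intervals all include 0, and the red ones of Neurod2, Neurod6 and Wfs1 in MS5 against Con and of Prox1, Neurod2 and Spink8 in MS5 against MS2 do not.

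The resemblance among the 10 genes was measured as Pearson's r of levels centred on the group means. Over 15 arrays the median r of the 45 pairs was 0.83 and 16 pairs were above 0.9. Over 14 arrays, without MS2 replicate 4, the median was 0.28, 1 pair was above 0.9 and 17 pairs were below 0. The resemblance across the whole set was thus set by that library, whereas the NeuroD genes still resembled one another without it. Neurod2 and Neurod6 had r = 0.94 and Spearman's rho = 0.93 over 14 arrays (permutation p = 1e-05 for both, the smallest that 100000 permutations can give, adjusted over 45 pairs 0.00045). Without the 2 arrays farthest from the Neurod2 median, Con replicate 19 and MS5 replicate 8, r was 0.82. Centred within each slide, it was 0.90 over the 8 arrays of slide 1 and 1.00 over the 6 of slide 2. On slide 2, MS2 had only replicate 5, which centring leaves without information. Con had only replicates 16 and 19 there, which centring makes mirror images. Within-slide values of r here and below are thus descriptions with little weight. The permutations shuffled centred levels over all 14 arrays, across groups and slides, although levels centred on a group mean are not independent. Permutation p-values of r and rho here and below may therefore be too small. Over the 14 arrays, Neurod1 had r = 0.87 with Neurod2 (rho = 0.88, permutation p = 3e-05 and 0.00016, adjusted 0.000675 and 0.0036) and 0.86 with Neurod6 (rho = 0.85, permutation p = 0.00018 and 0.00034, adjusted 0.0027 and 0.0051).

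**Figure D4:**
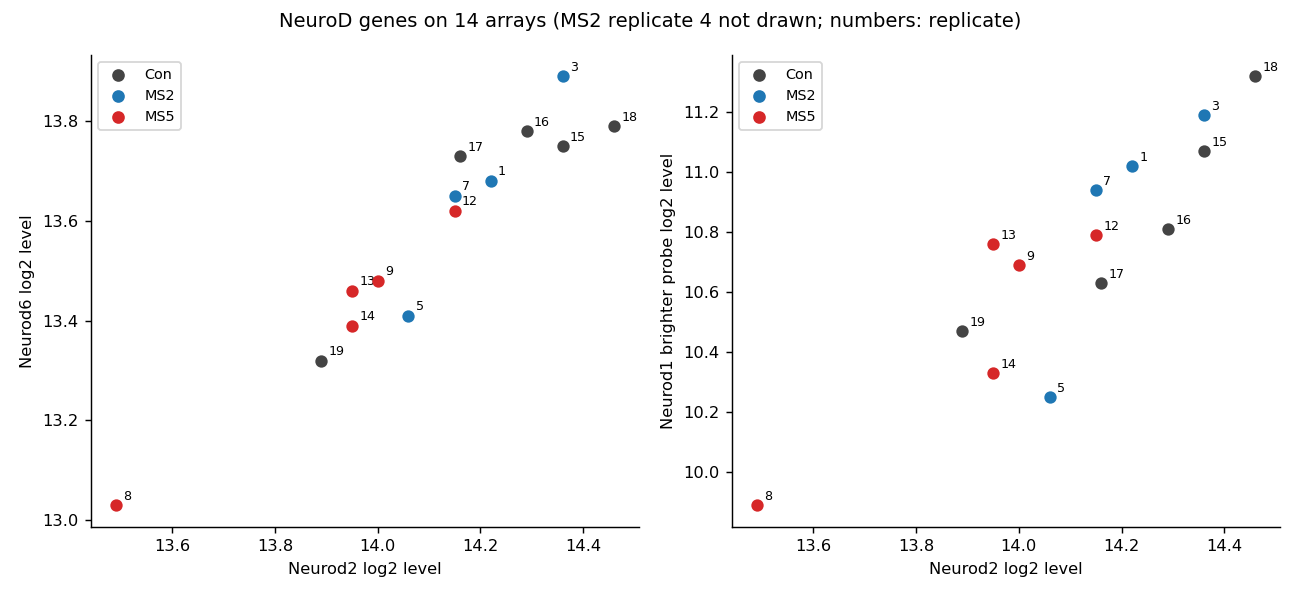
Log2 level of Neurod6 (left) and of the brighter Neurod1 probe (right) against that of Neurod2 on 14 arrays, coloured by group and numbered by replicate. MS5 replicate 8 is lowest in both panels, and the 14 arrays run along a line, with r = 0.94 for Neurod6 and 0.87 for Neurod1 after centring on group means.

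Calb1 ran the other way from most members, though not from Wfs1, with r = 0.06 over 14 arrays. Only 2 of its pairs below 0 had an adjusted p of r under 0.05, and neither passed by rho. Within slide 1 its r was 0.02 with Neurod1, -0.08 with Neurod2 and -0.39 with Neurod6. Over 14 arrays its r with Zbtb20 was -0.75 (rho = -0.60, permutation p = 0.00237 and 0.025, adjusted 0.0203 and 0.107) and with Slc17a7 -0.66 (rho = -0.59, permutation p = 0.0105 and 0.0302, adjusted 0.0428 and 0.107). Without MS2 replicate 5 and MS5 replicate 12, the arrays farthest from the Calb1 median, these were -0.46 and -0.38. Within slide 1 (8 arrays) they were 0.06 and -0.52, and within slide 2 (6 arrays, with the limit above) -0.84 and -0.95. The relation with Zbtb20 thus did not hold within slide 1 and rests on a few arrays. Prox1 and Zbtb20 had r = 0.74 and rho = 0.82 (permutation p = 0.0024 and 0.00047, adjusted 0.0203 and 0.00529), 0.60 without the 2 farthest arrays, and 0.77 and 0.65 within the slides.

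**Figure D5:**
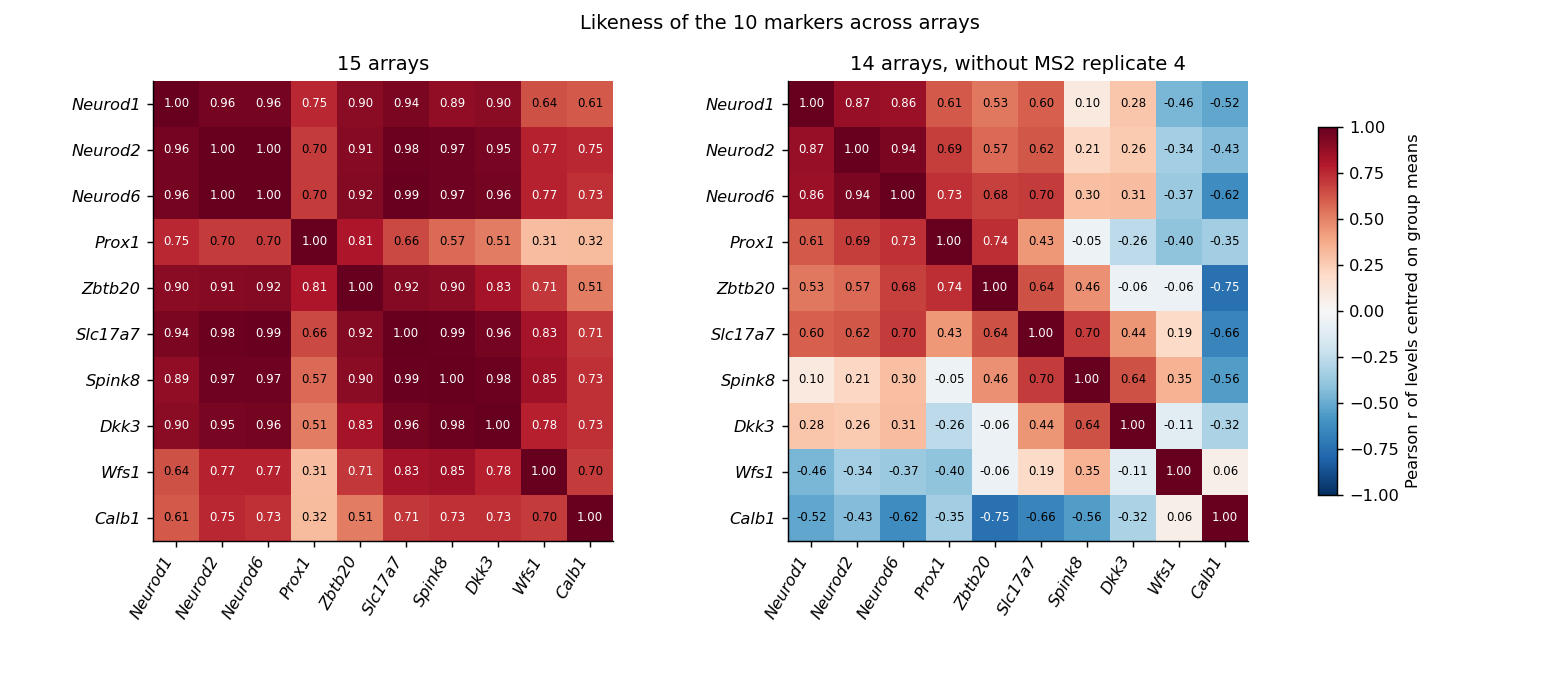
Pearson's r of log2 levels centred on group means for each pair of the 10 genes, over 15 arrays (left) and over 14 arrays without MS2 replicate 4 (right). The median of the 45 pairs is 0.83 on the left and 0.28 on the right, where the block of Neurod1, Neurod2 and Neurod6 stays at 0.86 to 0.94.

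Among all well-measured probes, those most like the members over 14 arrays included Tcf4, an E protein that pairs with NeuroD factors, at r = 0.95 with Neurod2, Nfix at 0.94 with Neurod6, Kirrel3 at 0.97 with Calb1 and Stx6 at 0.94 with Slc17a7. A probe named only by a region of chromosome 19 was the nearest to each of the 3 NeuroD genes, at 0.96, 0.96 and 0.95. The probe most like Zbtb20, at 0.97, is named by a region on the same strand of chromosome 16, downstream of the Zbtb20 probe. These are descriptions over arrays that share slides and groups.

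Genes of the same pathways and fields were read from lists, over 15 arrays and, where said, without MS2 replicate 4. Of 14 bHLH genes listed around NeuroD (partners, inhibitors and related factors), 1 was higher and 2 lower in MS5 against Con at unadjusted p under 0.05. None passed 1.5-fold. The higher one was Atoh1, which was not well above background on any array, so its value is only a bound. The lower ones were Id1 and Id3, inhibitors that take E proteins away from NeuroD, at -0.22 each (limma p = 0.0124 and 0.0272, adjusted p = 1, exact permutation p = 0.0397 and 0.0556). In MS2 against Con 1 was higher and 3 lower, and the E proteins Tcf3 and Tcf12 differed by -0.20 and -0.16 (limma p = 0.0118 and 0.00765, adjusted p = 0.97, exact permutation p = 0.0476 and 0.0159). With that library left out the counts were 1 higher and 3 lower in both comparisons, with Neurog2 at -0.29 joining the lower genes in MS5 against Con. Of 8 further CA1 markers none passed p under 0.05 in any comparison over 15 arrays, and without MS2 replicate 4 there were 2 lower in MS5 against Con and 3 lower in MS5 against MS2. Of 10 further granule cell markers Npnt, which encodes nephronectin, passed the threshold in MS2 against Con, at 0.61 (limma p = 0.018, adjusted p = 0.97, exact permutation p = 0.0794). MS2 replicate 4 was its highest array, at 9.47 against 7.63 to 8.94, and without it the difference was 0.43 (limma adjusted p = 1). Of 8 endoplasmic reticulum stress genes listed with Wfs1, Ddit3, which encodes the factor CHOP, was higher in MS5 than in Con, by 0.16 (limma p = 0.0393, adjusted p = 1, exact permutation p = 0.0952). In that list Hspa5 and Xbp1 were higher in MS5 than in MS2, by 0.24 and 0.22 (limma p = 0.00789 and 0.0317, adjusted p = 1, exact permutation p = 0.0317 and 0.0556). Atp1b1, a subunit of the sodium pump, was lower, at -0.15 (limma p = 0.0409, adjusted p = 1, exact permutation p = 0.0873). With MS2 replicate 4 left out, Xbp1 no longer passed, at 0.18, and Herpud1 did, at 0.18. None of the CA2, CA3, immature granule cell, glutamatergic or Dickkopf genes passed p under 0.05 over 15 arrays. Without that library the CA2 and CA3 genes still gave none. Of 7 genes of immature granule cells and progenitors, 3 were then lower in MS5 than in Con at unadjusted p under 0.05, namely Eomes, the factor Tbr2 of intermediate progenitors, at -0.50, Igfbpl1 at -0.34 and Neurog2 at -0.29. Eomes and Igfbpl1 were also lower in MS5 than in MS2, at -0.55 and -0.31. Of 8 glutamatergic genes, Slc17a6 and Slc17a8 were then higher in MS5 than in Con, at 0.39 and 0.34, Gria1 was lower, at -0.17, and Grin2b was higher in MS2 than in Con, at 0.36. Of 8 Dickkopf and coreceptor genes, Kremen2 was higher in MS5 than in Con, at 0.27, and Kremen1 lower in MS5 than in MS2, at -0.22. Of the 10 further granule cell markers, Tdo2 and Trpc6 were then lower in MS5 than in Con, at -0.20 and -0.26, and lower in MS5 than in MS2. None of these exceeded 1.5-fold or had an adjusted p under 0.05.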

How the data were processed

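Hippocampal RNA of 15 pups was measured on Agilent mouse arrays, 5 per group of Con, MS2 and MS5, grouped by the treatment in the labels. The deposited log2 values were made by the authors from scanner signals by normexp background adjustment and quantile normalization. The deposited scanner intensities, from Agilent Feature Extraction 10.7.1.1, gave gene names, probe positions on mm9, flags and slides. Recomputed values, with normexp at an offset of 50 and the first spot of each probe, matched the deposited table within 5e-09. The submitters' processing notes also name RMA, which belongs with microRNA arrays not analysed here.

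All 55681 non-control probes were fitted with limma 3.58.1 (R 4.3.3) as 1 model of 3 groups with no covariate, with Benjamini-Hochberg adjustment over all of them. The fit was tested on simulated data. Exact permutation tests were two-sided over 252 assignments (smallest p 0.00794) with 5 arrays per group. For a gene with more probes, the probe with the highest mean level stood for it, and the other is given too. Named genes of other lists are the largest MS5 against Con difference in each list and any past the threshold, except that the gene of the oligodendrocyte list is not reported here. Genes named outside that rule were chosen after their values were seen. The members and the lists were chosen with earlier results of these data known. Arrays are separate pups as labelled, and their number limits the precision. Alternatives changed the source of values, background offset, scaling, dim-probe filter, slide, array weights, groups in the fit, arrays left out, group-by-slide terms and the probe standing for a gene. Protein and whole-genome sequence were not used here.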

Additional observations from a re-analysis of the deposited data

Results flagged for a closer look

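Each of the 12 probes was checked in each group for a single array far from the others by Dixon's ratio, the gap to the nearest array over the range of the group. It exceeded Dixon's 95% critical value in 10 of 36 groups of 5 arrays, where chance gives about 1 in 20. Of these, 7 were the low level of MS2 replicate 4: Spink8 (0.935), Neurod2 (0.921), Slc17a7 (0.902), Dkk3 (0.892), Neurod6 (0.877) and both Neurod1 probes (0.714 and 0.813). In controls, Neurod6 was low in replicate 19 (0.863). In MS5, Wfs1 was low in replicate 13 (0.885) and Spink8 was high in replicate 12 (0.763). The probes vary together, so these are not separate events.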

How the results depend on the processing

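Over all 15 arrays, no probe of the 10 genes passed 1.5-fold with p under 0.05 under another source of values, offset, scaling, dim-probe filter, slide block, array weights or fit of 2 groups, with limma as the test. Within slide 1, 3 probes passed it in MS5 against Con and 2 in MS5 against MS2, and within slide 2, 2 passed it in MS5 against MS2. At p under 0.05 alone, within slide 1 gave 5 and 7, within slide 2 gave 2 in MS5 against MS2, array weights gave 1 in MS5 against MS2 and a fit of the 2 groups gave 3 in MS5 against Con. Leaving out 1 array gave 0 to 3 in both comparisons. The median difference of the 10 genes was -0.4 in MS5 against MS2 within slide 1, and -1.33 in MS2 against Con and 1.45 in MS5 against MS2 within slide 2, which holds MS2 replicate 4. Neurod1 in MS5 against MS2 turned to -0.73 within slide 1. Without MS2 replicate 4, a choice made after seeing the data, the count at p under 0.05 in MS5 against Con was 3 with an offset of 0, 1 with 75th percentile scaling, 2 with the slide as a block, 5 within slide 1, 1 within slide 2 and 4 with array weights. In MS5 against MS2 it was 2, 2, 1, 7, 0 and 6. Neurod2 in MS5 against Con kept p under 0.05 in 19 of 20 such settings, Wfs1 in 12 and Neurod6 in 11. Most of these settings left out 1 further array, so they share nearly all of the data and are not independent. Those without a further MS2 array changed only the shared estimate of spread in this contrast. Neurod2 did not keep it within slide 2, at -0.06, and its exact permutation p was 0.0635. Of 640 single-gene values under alternatives, 56 changed sign without being past the threshold, 5 came past it and 1 changed sign past it. The causes were not tested. The paper states that controls were littermates of treated pups, but the labels do not give the litter. No analysis by litter was therefore possible, and pups were treated as independent.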

Other observations

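Genes of other cell types were read from lists on the same arrays. In MS5 against Con, 11 of 12 choroid plexus genes were past 1.5-fold with p under 0.05, all lower, with Folr1 at -2.0 (limma p = 0.00812, adjusted p = 1, exact permutation p = 0.0317). The others were Kl, Aqp1, Clic6, Cldn2, Otx2, Slc4a5, Kcnj13, Kcne2, Enpp2 and Calml4, between -1.72 and -1.11, and without MS2 replicate 4 the same count passed. The summed level of that list was 14.15 in MS5 replicate 14 and 16.31 in MS5 replicate 9, against 17.82 to 18.65 on the other arrays, and the median of the 10 principal neuron markers in those replicates was 0.00 and 0.08 from the group mean. Of 9 genes of hypothalamus and thalamus, 3 were past the threshold and higher in MS5 (Avp, Oxt and Trh), with Avp at 2.53 (limma p = 0.028, adjusted p = 1, exact permutation p = 0.119). There were 4 without MS2 replicate 4, with Gbx2 at 0.92 as the further one. By exact permutation, Hbb-b1 of blood was at -0.49 (p = 0.198), Pvalb of interneurons at 0.83 (p = 0.302), Foxp2 of cortical neurons at 0.94 (p = 0.143) and Dcn of meninges at -0.50 (p = 0.317). The genes of the other lists with the most change in MS5 against Con, none past p under 0.05 by limma over 15 arrays, were Slc17a6 at 0.39, Gjb6 at 0.26, Dsp at -0.33, Pcp4 at 0.41, Eomes at -0.50, Tmem212 at -0.52, Itgam at 0.16, Fibcd1 at -0.38, Bok at -0.12, Neurog2 at -0.29 and Kremen2 at 0.27. Of these, Slc17a6, Eomes, Fibcd1, Neurog2 and Kremen2 passed unadjusted p under 0.05 without MS2 replicate 4, and over 15 arrays the exact permutation p was 0.0238 for Eomes and 0.0317 for Kremen2. Of 6 endothelium genes, 3 were higher and 3 lower in MS5 against Con over 15 arrays. Kdr was higher, at 0.23 (limma p = 0.0462, adjusted p = 1, exact permutation p = 0.0556). Slco1c1 went the other way without MS2 replicate 4, at unadjusted limma p under 0.05. It was at -0.19 in MS5 against Con and -0.25 in MS5 against MS2. None of the astrocyte, oligodendrocyte, microglia, interneuron, meninges, blood or ependymal genes passed p under 0.05 in any comparison over 15 arrays, as tested with limma. Of 7 cortical neuron genes, 1 was lower in MS5 than in Con at unadjusted limma p under 0.05 over 15 arrays. Without MS2 replicate 4, 2 of them passed in MS5 against Con, Rorb higher at 0.25 and Scnn1a lower at -0.24. With MS2 replicate 4 left out, unadjusted p was under 0.05 for Slc1a2 of astrocytes, at 0.44 in MS2 against Con and -0.39 in MS5 against MS2, for Sst of interneurons, at 0.24 in MS5 against Con, and for Lum of meninges, at -0.31 in MS5 against Con and -0.32 in MS5 against MS2. None of these exceeded 1.5-fold or had an adjusted p under 0.05.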
